A study of Mus musculus with 3 samples.

Results

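Tetraspanins and the ESCRT machinery, with the adaptors ALIX (Pdcd6ip) and syntenin (Sdcbp), were examined in B16 mouse melanoma cells. They were found by symbol as 52 of the 17285 rows of the count table, 26 tetraspanins and 26 ESCRT genes. The tetraspanins are the rows named Tspan with a number plus Cd9, Cd37, Cd63, Cd81, Cd82 and Cd151, and Cd53 was not analysed here. The ESCRT genes are 3 of ESCRT-0, 6 of ESCRT-I, 3 of ESCRT-II, 10 Chmp genes of ESCRT-III, the 2 VPS4 ATPases and the 2 adaptors. The study sequenced total RNA of 3 samples, labelled as numbered Mock replicates, from 1 stable B16 line that carries an empty vector. The series title concerns the sialyltransferase ST8Sia5 and its release from cells, and no sample that expresses it was analysed here. All 3 samples form 1 group, so every comparison below is between genes or between replicate libraries of that group. The labels do not say whether the replicates came from separate cultures, and p-values then measure only the spread between these samples.

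Tetraspanins are small proteins that cross the membrane 4 times and gather integrins, proteases and each other into membrane domains. ESCRT complexes act in turn on endosomes: ESCRT-0 gathers ubiquitinated cargo, ESCRT-I and ESCRT-II pass it on, and ESCRT-III filaments, taken apart by VPS4, cut the vesicle neck. Vesicles formed inside endosomes can be released as exosomes, on which CD63, CD81 and CD9 are common markers, and in pigment cells CD63 also sorts the melanosome protein PMEL.

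The libraries held 9328096, 9456527 and 9438905 counts, and the biological coefficient of variation was 2.8%. Levels are given as counts scaled to a common library size (CPM), and 1 CPM corresponds to 28.2 reads summed over the libraries. Of the melanocyte markers 8 of 8 were above 1 CPM, as were 74.3% of all rows tested, and their summed level was 23050 to 24384 CPM. The highest were Tyrp1 at 12337 ± 399 CPM and Gpnmb at 5830 ± 190 CPM, and the lowest was Tyr at 6.56 ± 0.831 CPM. Per kilobase of exon, 7 of the 8 were over the median of all rows tested. Summed levels were 2.65 to 3.21 CPM for 8 leukocyte markers, 32.6 to 38.1 for 7 fibroblast, 0.106 to 0.321 for 6 endothelial and 0.848 to 1.48 for 5 epithelial markers. Of the fibroblast markers Col1a2 measured 27.6 ± 1.39 CPM and Col1a1 8.29 ± 1.62 CPM, Pdgfra was below 1 CPM, and no reads fell on Fap, Thy1, Col3a1 or Dcn. In bulk RNA, fewer cells that express a gene and less RNA per cell cannot be told apart.

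Nearly the whole ESCRT machinery was expressed, whereas the tetraspanins ranged from the most abundant member of all, Cd63, to a gene with no read. Each gene was tested against 1 CPM with the quasi-likelihood F test of edgeR and Benjamini-Hochberg adjustment over the 14408 rows with a count. Of the 26 ESCRT genes, 25 were above 1 CPM and 1, Chmp4c, was below. Of the 26 tetraspanins, 19 were above, 5 (Tspan8, Tspan33, Cd37, Tspan1 and Tspan18) were below, Tspan2 was unresolved and Tspan11 had no count. Over all rows tested, 74.3% were above and 20.2% below, and with rows without a count included 62.0% of all 17285 were above. The share above was 73.1% for the 26 tetraspanins, Tspan11 included, and 96.2% for the ESCRT genes. The calls below 1 CPM rest on few reads: 2 tetraspanins were called below without replicate 1, and 2 without replicate 3, and no ESCRT gene was without replicate 1 or 2. DESeq2's Wald test called none of them below, at a dispersion of 10 for each, and with a mean dispersion it called all 6.

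**Figure D1:**
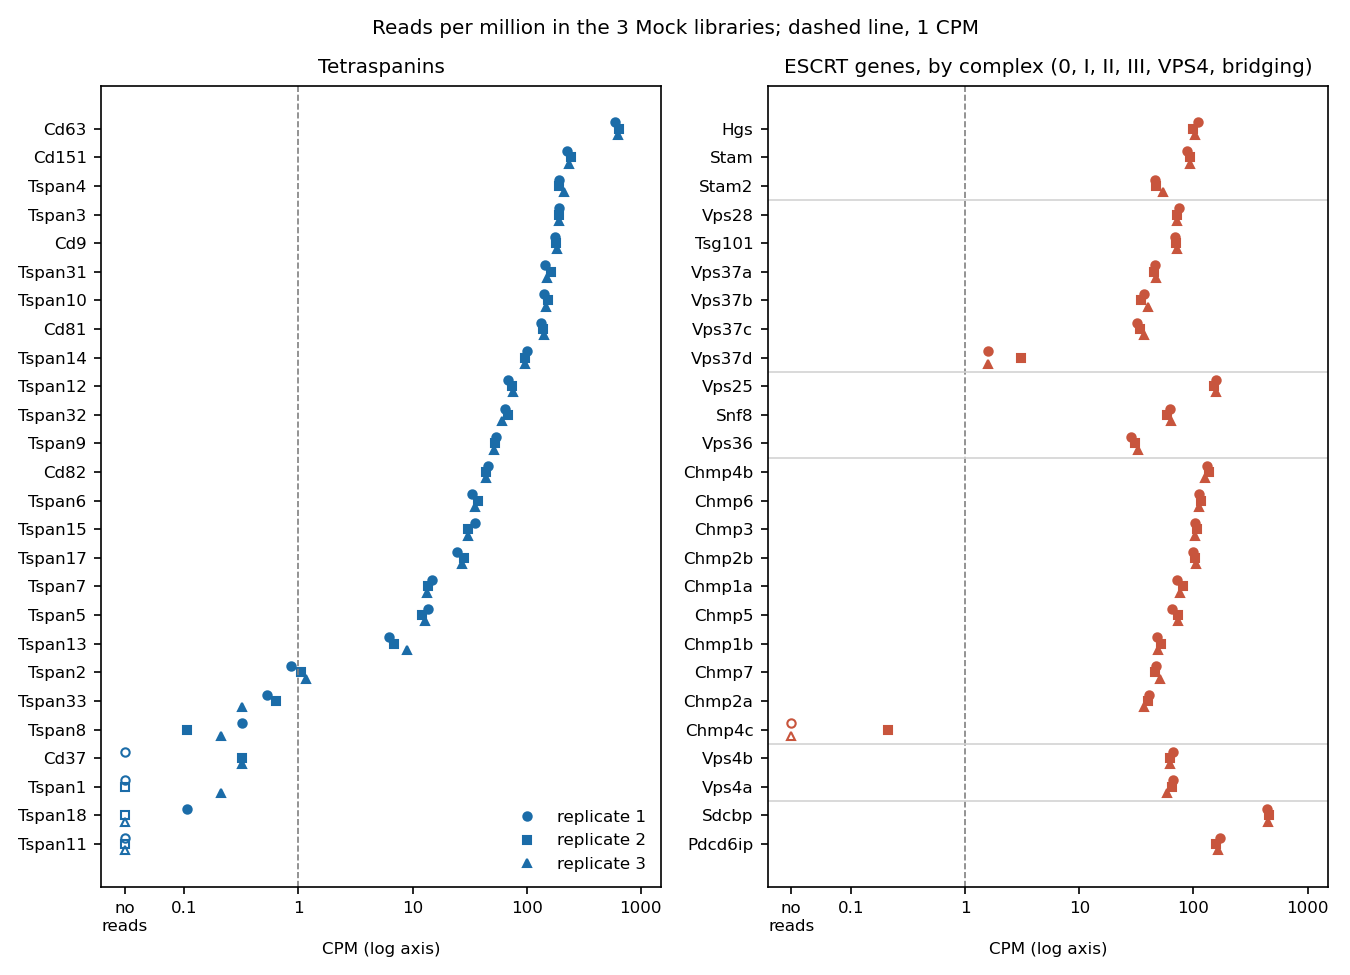
CPM (log axis, horizontal) of the 26 tetraspanins on the left, ordered by level, and the 26 ESCRT genes on the right, by complex. Circle, square and triangle are replicates 1, 2 and 3, open symbols stand for libraries with no reads, and the dashed line is 1 CPM. Of the ESCRT genes Vps37d and Chmp4c lie apart from the others, while the tetraspanins run from Cd63 at 597 to 645 CPM down to Tspan11 with no reads.

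The most abundant member was Cd63 (chromosome 10, 128900989 to 128912822, GRCm38), which codes for the tetraspanin of late endosomes, melanosomes and exosomes. It measured 597, 645 and 625 CPM in replicates 1, 2 and 3, or 169 ± 6.56 CPM per kilobase (SD, n = 3), the scale on which genes are compared here. Its library range of 162 to 175 CPM per kilobase did not overlap that of the next member, Vps25, at 91.5 to 96.1. Of its 31-base words, 15.9% also occur in other genes, of which the pseudogene Cd63-ps shares the most. That is a share of words in annotated transcripts and not of reads, so how many of its reads are uncertain was not measured. Cd63 alone made up 20.6% of the summed tetraspanin level per kilobase, and the first 6 tetraspanins (Cd63, Tspan4, Cd9, Cd151, Tspan10 and Tspan31) made up 71.6%. The first 6 ESCRT genes held 51.4% of theirs.

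The other classic exosome tetraspanins were lower. Cd9, a surface tetraspanin needed on eggs for fusion with sperm, measured 179, 179.6 and 184 CPM, or 88.4 ± 1.27 CPM per kilobase. Cd81, its close relative, measured 134, 139 and 141 CPM, or 48.1 ± 1.26 CPM per kilobase. The level of Cd81 per kilobase was below that of Cd9 in 3 of 3 libraries, with a log2 ratio of -0.88 ± 0.02 (SD, n = 3).

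Cd151 and Tspan4 were adjacent in the genome and close in level. They lie on the same strand of chromosome 7 with 3.77 kb between them, Cd151 at 141467392 to 141471473 and Tspan4 at 141475240 to 141493427. Cd151, the partner of laminin-binding integrins, measured 228, 245 and 233 CPM, and Tspan4, a component of migrasomes, measured 193, 190.4 and 213 CPM. Per kilobase the levels were 85.8 ± 3.15 for Cd151 and 91.3 ± 5.83 for Tspan4, and their library ranges overlapped. Tspan4 had fractional counts, and 13.4% of its exon length overlaps Chid1 on the opposite strand, which measured 54.2 ± 1.27 CPM. By contrast Tspan11, the tetraspanin most like Cd151 in sequence, had 0 reads in 3 libraries. Against a floor of 3 counts over the group (0.106 CPM), Cd151 was at least 4298-fold higher per kilobase.

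Tspan11 itself lies 7.42 kb from Tspan9 on chromosome 6, on the other strand, and Tspan9 was expressed at 53.4, 52.4 and 52.0 CPM. Tspan9, known from platelets, is the close relative of Tspan4 and was lower by a log2 ratio of 3.11 ± 0.11 per kilobase (SD, n = 3; Tspan4 over Tspan9). A pair on chromosome 2 was split as well, since Cd82, a metastasis suppressor, measured 45.5, 44.2 and 44.0 CPM, while Tspan18, 84.6 kb away and known from endothelium, had 1 read in all. Cd81 and Tspan32, 33.1 kb apart on chromosome 7, were both above 1 CPM.

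Tspan32 is a tetraspanin known mainly from blood cells, and it was well expressed. It measured 64.0, 68.0 and 61.0 CPM, or 10.3 ± 0.568 CPM per kilobase, with an adjusted p of 3.48e-13 against 1 CPM by edgeR's quasi-likelihood test. Cd37, a tetraspanin of B cells, had 0, 3 and 3 reads and was below 1 CPM (adjusted p = 0.00618 by the same test). Of the 8 leukocyte markers with a row, Cd48 was above 1 CPM at 1.81 ± 0.193 CPM, Laptm5 and Cd79a were below, Coro1a was unresolved, and Cd3g, Csf1r, Adgre1 and Tyrobp had no count. The summed leukocyte level was 2.65 to 3.21 CPM over the libraries, and Tspan32 had a mean of 64.3 ± 3.54 CPM. Which cells the Tspan32 reads came from was not tested.

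The 6 tetraspanins of the TspanC8 group bind the protease ADAM10 and steer it out of the endoplasmic reticulum. Adam10 measured 108 ± 0.827 CPM. Of the group, 5 were above 1 CPM and Tspan33 was below. Tspan10, also called oculospanin for its expression in the pigmented eye, led them with 143, 154 and 149 CPM, or 82.5 ± 3.04 CPM per kilobase. Tspan14 followed at 36.9 ± 0.807, Tspan17 at 16.1 ± 1.05, Tspan15 at 3.91 ± 0.344 and Tspan5 at 1.74 ± 0.101 CPM per kilobase. The order per kilobase was the same in every library. In CPM, however, Tspan15 (35.3, 30.4 and 30.3) was above Tspan17 (24.7, 28.1 and 27.0), so the order of that pair rests on exon length. Tspan33 had 5, 6 and 3 reads, against 100.1, 95.9 and 97.3 CPM for its relative Tspan14, a log2 ratio per kilobase of 8.49 ± 0.47 for Tspan14 over Tspan33.

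Tspan10 and Tspan15, another pair of relatives, differed by a log2 ratio of -4.40 ± 0.17 per kilobase (Tspan15 over Tspan10), and Tspan5 and Tspan17 by -3.21 ± 0.18 (Tspan5 over Tspan17). Tspan10 also lies 20.7 kb from the ESCRT-0 gene Hgs, on the same strand of chromosome 11, which measured 109.8, 99.5 and 104 CPM.

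Tspan3 measured 193, 192 and 191 CPM, the narrowest spread of the abundant tetraspanins, or 44.9 ± 0.297 CPM per kilobase. Tspan31 measured 145, 163 and 149.97 CPM, or 69.6 ± 4.25 CPM per kilobase, but 29.2% of its exon length overlaps Cdk4 on the opposite strand, which measured 724 ± 12.3 CPM. The use of strand in counting is not given in the sources used here, so reads of Tspan31 and Cdk4 cannot be told apart in the overlap. Tspan13, the close relative of Tspan31, measured 6.20, 6.89 and 9.02 CPM and was lower by 4.55 ± 0.29 on the log2 scale per kilobase.

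Tspan12, a coreceptor with FZD4 for the ligand Norrin, measured 69.2, 74.5 and 76.4 CPM, while Fzd4 itself measured 4.32 ± 0.320 CPM. The X-linked relatives Tspan6 and Tspan7 measured 33.4, 37.4 and 35.4 CPM and 14.9, 13.7 and 13.4 CPM, a log2 ratio of 3.12 ± 0.15 per kilobase for Tspan6 over Tspan7. Tspan7 is best known from the nervous system. Tspan2, known from myelin-forming cells and related to Cd9, had 29 reads in all and could not be placed on either side of 1 CPM (adjusted p = 0.891 by edgeR's test). Cd9 was 392-fold higher per kilobase than Tspan2.

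Tspan8 and Tspan1, both known from epithelia, had few reads. Tspan8 had 3, 1 and 2 reads (adjusted p = 0.00216 against 1 CPM by edgeR's test) and Tspan1 had 0, 0 and 2 reads (adjusted p = 0.0016). For Tspan18, with 1 read, the adjusted p was 6.10e-04, and for Tspan33 it was 0.026. The calls of Tspan33, Cd37 and Tspan1 were lost when 1 library was left out, with adjusted p-values of up to 0.0995, 0.0568 and 0.051 by the same test. For Tspan33 this happened without replicate 1 (0.0836) or replicate 3 (0.0995), for Cd37 without replicate 2 (0.0528) or replicate 3 (0.0568), and for Tspan1 without replicate 1. Without replicate 3 Tspan1 had no read to test, and neither did Tspan18 without replicate 1.

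The 3 ESCRT-0 genes, which bind ubiquitinated cargo, were all above 1 CPM. Hgs, given above, was followed by Stam at 87.5, 92.5 and 93.9 CPM and Stam2 at 46.5, 46.6 and 53.9 CPM. Per kilobase Hgs stood at 35.1 ± 1.73, Stam at 10.9 ± 0.400 and Stam2 at 8.16 ± 0.704, and Stam was above Stam2 in 3 of 3 libraries (log2 ratio 0.42 ± 0.09).

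In ESCRT-I, a complex of TSG101, VPS28, 1 VPS37 protein and 1 MVB12-type protein, the core subunits had similar counts. Tsg101 measured 69.4, 70.3 and 71.1 CPM and Vps28 74.4, 72.5 and 72.3 CPM, or 25.7 ± 0.296 and 31.7 ± 0.488 CPM per kilobase. Of the words of Tsg101, 26.0% recur in other genes, of which its pseudogene Tsg101-ps shares the most. Among the 4 alternative VPS37 subunits, Vps37a measured 46.2, 45.3 and 47.2 CPM, Vps37b 36.9, 34.4 and 40.2 CPM and Vps37c 32.2, 34.3 and 36.8 CPM. Per kilobase Vps37b (13.3 ± 1.04) and Vps37c (12.7 ± 0.858) overlapped, with libraries on both sides of a ratio of 1, and Vps37a (7.25 ± 0.147) was lower in 3 of 3. In counts alone Vps37a was above Vps37b, by a log2 ratio of 0.32, so that order rests on exon length, and 32.9% of the Vps37b exons overlap Hip1r (15.0 ± 1.29 CPM) on the opposite strand. Vps37d was near the limit with 15, 29 and 15 reads and was called above 1 CPM (adjusted p = 0.00404 by edgeR's test), but not without replicate 1 (adjusted p = 0.0645).

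The 3 ESCRT-II genes were above 1 CPM. Vps25 was the highest ESCRT gene per kilobase of merged exon at 94.4 ± 2.53, with 157, 150.2 and 158 CPM in the libraries. In CPM, Sdcbp (447 ± 8.15) and Pdcd6ip (164 ± 6.24) were higher, so that rank rests on exon length. Its exons overlap those of Ramp2 on the same strand over 67.2% of their length, and Ramp2 had 6 reads in all, a mean of 0.213 ± 0.107 CPM. How counting assigned reads in that overlap is not given in the sources used here. Snf8 measured 62.8, 59.0 and 63.8 CPM and Vps36 28.1, 30.6 and 33.0 CPM, or 23.1 ± 0.946 and 8.25 ± 0.659 CPM per kilobase.

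Of the 10 Chmp genes, whose products form the ESCRT-III filament, 9 were above 1 CPM. Chmp4b, the main filament subunit that ALIX binds, was highest with 133, 136 and 127 CPM, or 65.1 ± 2.35 CPM per kilobase. Its paralog Chmp4c, which acts in the abscission checkpoint of dividing cells, had 0, 2 and 0 reads (adjusted p = 0.0016 against 1 CPM by edgeR's test, and 0.051 without replicate 1), and without replicate 2 it had no read to test. Chmp4b was thus 9266-fold higher per kilobase, with a 95% exact binomial interval of 2563 to 76540 that covers counting error only.

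Chmp2b, Chmp6 and Chmp5 came next per kilobase at 53.3 ± 1.79, 46.6 ± 1.1974 and 46.3 ± 3.47. The others above 1 CPM were Chmp2a at 33.7 ± 1.61, Chmp3 at 32.2 ± 0.533, Chmp1a at 23.2 ± 1.32, Chmp1b at 19.7 ± 0.914 and Chmp7 at 7.60 ± 0.408 CPM per kilobase. CHMP7 recruits the other subunits to the reforming nuclear envelope. Within the Chmp2 pair, Chmp2b measured 98.8, 104 and 105 CPM and Chmp2a 40.6, 39.7 and 37.015 CPM, a log2 ratio per kilobase of -0.66 ± 0.11 for Chmp2a over Chmp2b. Chmp1a, at 71.8, 80.4 and 75.7 CPM, was above Chmp1b, at 48.2, 52.4 and 48.6 CPM, by 0.24 ± 0.03 on the same scale.

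The ATPase genes Vps4a and Vps4b, whose products take the filament apart, gave nearly the same read counts. Vps4a measured 66.2, 64.7 and 58.2 CPM and Vps4b 66.7, 61.8 and 62.0 CPM, and their log2 ratio in counts was -0.01. Per kilobase of merged exon Vps4a stood at 24.996 ± 1.68 and Vps4b at 7.13 ± 0.308, a log2 ratio of 1.81 ± 0.08. With coding length it was 0.01, so the order of the pair per kilobase rests on the length used.

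The adaptor genes were among the most counted members. Sdcbp, whose product syntenin ties syndecans to ALIX, measured 439, 455 and 449 CPM, next to Cd63 in CPM, or 64.8 ± 1.18 CPM per kilobase. Pdcd6ip, which codes for ALIX, measured 170.1, 158 and 164 CPM, or 23.8 ± 0.904 CPM per kilobase. The syntenin paralog Sdcbp2 had 10 reads in all.

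**Figure D2:**
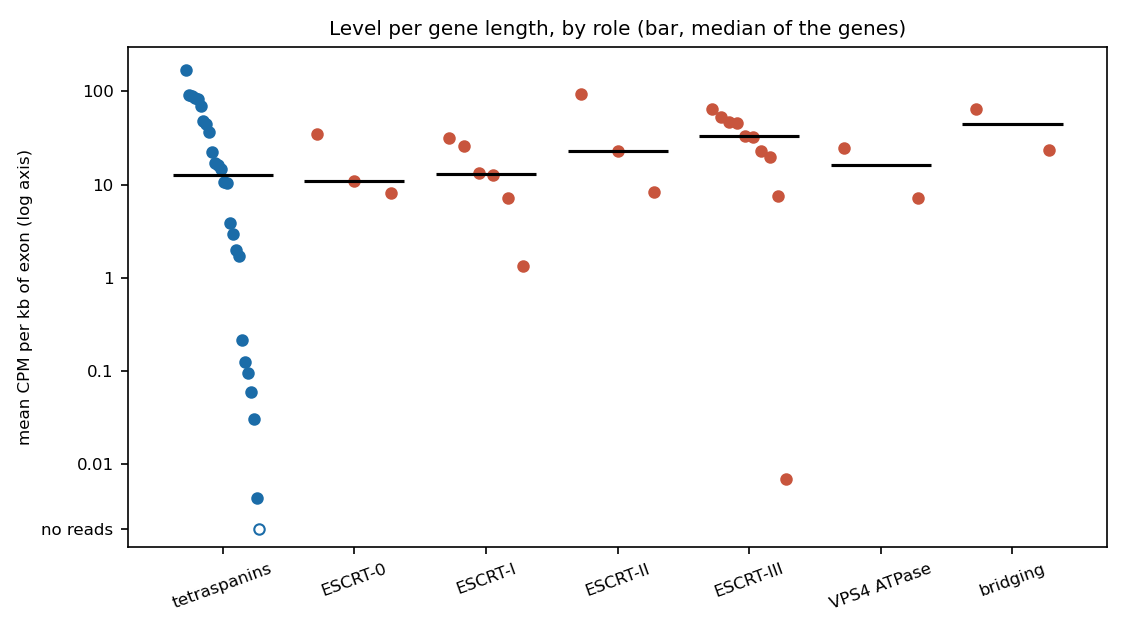
Mean level over the 3 libraries in CPM per kilobase of exon (log axis, vertical) by role, with 1 point per gene, an open point for the gene with no reads and a bar at the median of the genes. Apart from Vps37d at 1.35 and Chmp4c at 0.00701, the ESCRT genes lie between 7.13 and 94.4, and the tetraspanins extend both above and below them.

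Set against each other as classes, ESCRT genes had the higher median and tetraspanins the larger sum. The median level was 24.1, 23.7 and 23.5 CPM per kilobase for the 26 ESCRT genes in replicates 1, 2 and 3, and 12.8, 12.8 and 12.5 for the 26 tetraspanins. The log2 ratio of the medians was 0.90 ± 0.01 (SD, n = 3 libraries). Over all rows tested the median was 4.92 CPM per kilobase, and with rows without a count included it was 2.86. Summed over members, tetraspanins were higher at 796, 833 and 827 CPM per kilobase against 715, 724 and 723 for ESCRT genes, a log2 ratio of -0.18 ± 0.03. Members are not replicates, so neither difference carries a test.

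The difference in medians rested on the low tetraspanins and on the length used. Among members above 1 CPM only, 25 ESCRT genes and 19 tetraspanins, the log2 ratio of the medians averaged 0.14 over the 3 libraries. With coding length in place of exon length it was 0.20. The spread within the classes differed too, since the upper quartile was 3.90 times the lower for ESCRT genes and 79.4 times for tetraspanins. Among members above 1 CPM these ratios were 3.22 and 7.28. Of the ESCRT genes 24 of 26, and of the tetraspanins 15 of 26, were over the median per kilobase of all rows tested. That median leaves out rows without a count.

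**Figure D3:**
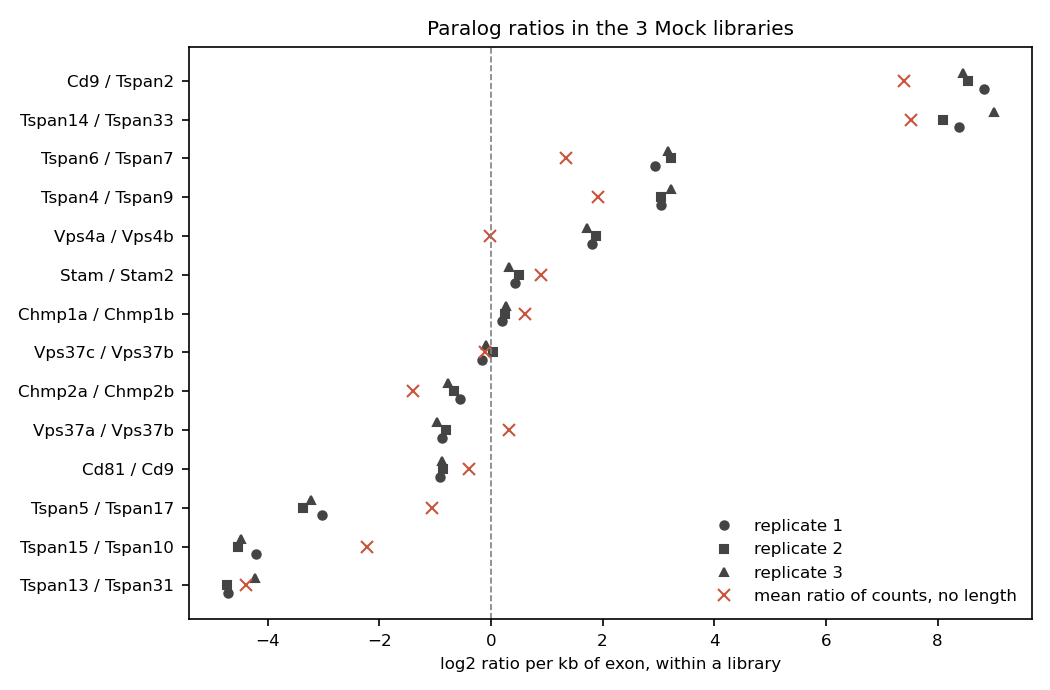
Log2 ratio per kilobase of exon (horizontal) within 14 pairs of related genes in which both had more than 2 reads, with circle, square and triangle for replicates 1, 2 and 3. Crosses give the mean log2 ratio of counts without length, which stands on the other side of 0 from the points for Vps4a over Vps4b (-0.01) and Vps37a over Vps37b (0.32).

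Ratios within 16 pairs of related genes were taken in each library, with 0.5 added to every count. In 15 pairs the 3 libraries lay on 1 side of 0. No test was made, since 3 libraries cannot give an exact two-sided sign-flip p below 0.25. Of the 7 ESCRT pairs only Chmp4b over Chmp4c exceeded 2 on the log2 scale per kilobase. Of the 9 tetraspanin pairs all but Cd81 over Cd9 did so in size. That contrast rests in part on exon length. In counts without length, Tspan6 over Tspan7 (1.34), Tspan5 over Tspan17 (-1.05) and Tspan4 over Tspan9 (1.92) also stayed under 2 in size.

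Between the 3 libraries the members varied little. Of the 44 members with a mean of at least 10 counts, 2 differed between libraries beyond counting error by a Poisson deviance test with Benjamini-Hochberg adjustment, against 3.31% of the 11000 rows tested. They were Cd63 (adjusted p = 0.00835) and Tspan4 (adjusted p = 0.0213, with the fractional counts noted above), both by the Poisson deviance test. Cd63 was lowest in replicate 1 and Tspan4 highest in replicate 3. Leaving out 1 library left 1, 0 and 1 of these calls for replicates 1, 2 and 3. None of the 25 ESCRT genes was called, and 3 had an unadjusted p under 0.05, as did 3 tetraspanins, 6 of 44 members in all against 14.9% of all rows tested. In the 42 members with at least 300 counts the highest library exceeded the lowest by a median of 0.11 on the log2 scale, and by 0.23 at most. For Cd63 this difference was 0.11 and for Tspan4 0.16. Cd63 had the most reads of any member, 17558 in all, and the deviance test gains power with reads. In the order of all 52 members by level per kilobase, 35 of the 51 neighbouring pairs had overlapping library ranges, so much of the fine order is not resolved.

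The promoters of the members were described by base composition. RefSeq promoters (250 bases before to 50 after the most upstream start, GRCm38.p6) were matched for 42 members, 25 tetraspanins and 17 ESCRT genes. A promoter was called CpG-rich where the observed over expected CpG ratio was at least 0.6 and the GC content at least 50%, and these features were chosen after levels had been seen. Of the ESCRT promoters 15 of 17 (88.2%) were CpG-rich, and all 17 had a ratio of at least 0.66. All 17 belong to genes above 1 CPM. Of the tetraspanin promoters 14 of 25 (56.0%) were CpG-rich. The share was 57.1% of the 13291 promoters of genes in the table, 74.2% of those of genes above 1 CPM and 1044 of 4176 of those below it or without counts. Genes without an entry were Vps28, Vps37a, Vps37b, Snf8, Chmp1b, Chmp4c, Chmp6, Chmp7, Sdcbp and Tspan18.

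Some expressed tetraspanins had CpG-poor promoters, although 12 of the 19 above 1 CPM (63.2%) had CpG-rich ones. The ratio was 0.33 for Cd63, 0.054 for Tspan10 and 0.085 for Tspan32, beside 0.23 to 0.34 for the low genes Tspan1, Tspan8, Tspan11 and Cd37. The other tetraspanins among the first 6 per kilobase had higher ratios, 0.86 for Tspan4, 0.69 for Cd9, 0.65 for Cd151 and 0.63 for Tspan31. A CpG-poor promoter window was found both in the highest tetraspanin and in nearly silent ones, while Tspan33, with a CpG-rich window, was below 1 CPM. Gene annotation begins upstream of the window for Cd63 (at 128900989) and for Tspan8 (at 115816832). Which start these cells use was not tested, so the windows may not be the promoters behind these reads. The 250 bases before the start are shown for Cd63 (chr10:128909095-128909344, + strand), Tspan32 (chr7:143004796-143005045, + strand), Tspan8 (chr10:115817034-115817283, + strand) and Tsg101 (chr7:46919970-46920219, - strand), 5′ to 3′ on the strand of the gene. They set 2 expressed genes with few CpGs beside a low gene with few and an ESCRT gene with many. Capitals mark CpG dinucleotides, of which there are 6, 1, 4 and 30.
Cd63: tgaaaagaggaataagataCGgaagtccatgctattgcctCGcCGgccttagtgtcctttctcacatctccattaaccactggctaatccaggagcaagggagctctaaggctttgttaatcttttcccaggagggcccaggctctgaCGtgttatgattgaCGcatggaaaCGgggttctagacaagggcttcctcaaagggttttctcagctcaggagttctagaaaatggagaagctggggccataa
Tspan32: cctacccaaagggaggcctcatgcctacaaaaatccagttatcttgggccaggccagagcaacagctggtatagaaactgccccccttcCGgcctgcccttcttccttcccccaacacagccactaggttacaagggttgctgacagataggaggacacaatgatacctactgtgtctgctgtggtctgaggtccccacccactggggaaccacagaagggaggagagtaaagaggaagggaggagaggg
Tspan8: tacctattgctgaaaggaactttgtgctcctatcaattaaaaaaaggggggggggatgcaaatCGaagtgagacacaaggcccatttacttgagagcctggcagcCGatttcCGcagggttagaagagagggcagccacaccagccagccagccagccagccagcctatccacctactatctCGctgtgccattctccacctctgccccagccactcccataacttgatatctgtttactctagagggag
Tsg101: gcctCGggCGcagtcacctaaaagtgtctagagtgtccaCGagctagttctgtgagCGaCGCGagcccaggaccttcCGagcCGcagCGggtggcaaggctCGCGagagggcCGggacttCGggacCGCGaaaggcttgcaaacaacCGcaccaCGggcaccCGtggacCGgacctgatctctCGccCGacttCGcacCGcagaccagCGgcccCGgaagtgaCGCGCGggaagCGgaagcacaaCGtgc

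**Figure D4:**
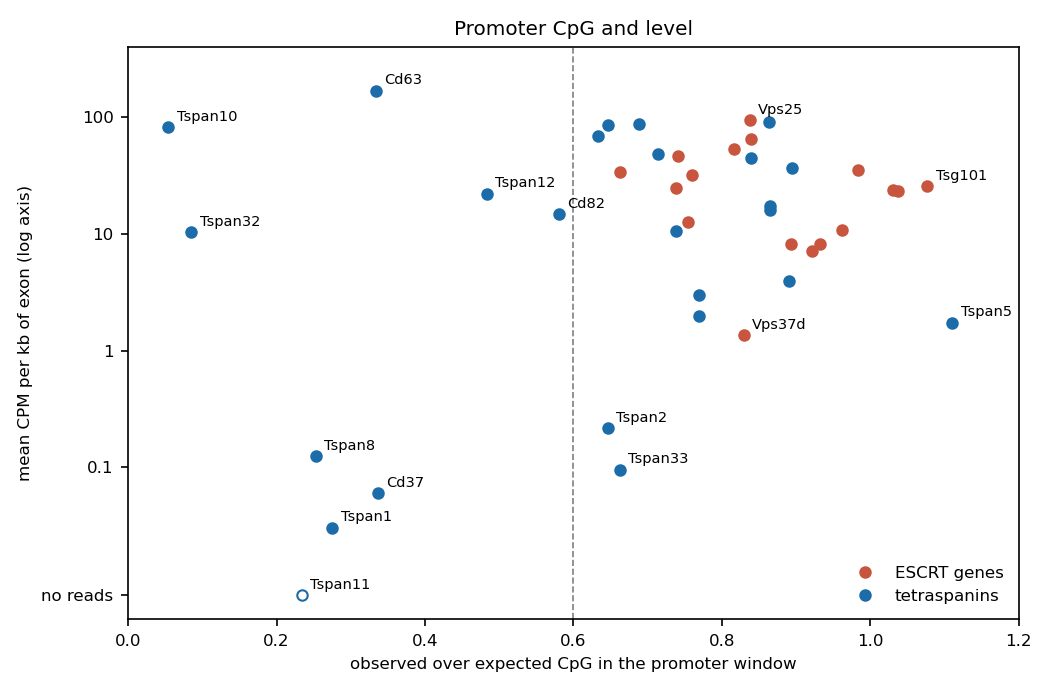
Observed over expected CpG ratio of the 300-base promoter window (horizontal) against mean CPM per kilobase of exon (log axis, vertical) for the 42 members with a promoter, with the dashed line at 0.6 and an open point for the gene with no reads. ESCRT genes lie at 0.66 or more, and the tetraspanins below 0.6 include both Cd63 and genes near 0.

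The M-box, TCATGTG on either strand, is known as the site through which MITF acts on pigment genes, and it occurred in 2 of 25 tetraspanin promoters, Tspan10 and Tspan3. It was in 0 of 17 ESCRT promoters and in 2.49% of all promoters in the table. The share was 1.97% for genes above 1 CPM and 3.59% for genes below it or without counts. It also stood in the promoters of the pigment genes Tyr, Tyrp1 and Dct. Those genes measured 6.56 ± 0.831 CPM, 12337 ± 399 CPM and 2713 ± 47.7 CPM. The other melanocyte markers were not examined for it, and a link of the M-box with level was not tested. The E-box CACGTG stood in those of Pdcd6ip and Cd37, and in 9.13% of all promoters. A match describes letters in this window and is not a binding site. The same 250 bases are shown for Tspan10 (chr11:120442381-120442630, + strand) and Tspan3 (chr9:56161071-56161320, - strand) with the M-box in capitals, beginning 21 bases before the start in Tspan10 and 248 in Tspan3. Gene annotation from GENCODE begins further upstream than these starts for Cd63, Tspan3 and Tspan8.
Tspan10: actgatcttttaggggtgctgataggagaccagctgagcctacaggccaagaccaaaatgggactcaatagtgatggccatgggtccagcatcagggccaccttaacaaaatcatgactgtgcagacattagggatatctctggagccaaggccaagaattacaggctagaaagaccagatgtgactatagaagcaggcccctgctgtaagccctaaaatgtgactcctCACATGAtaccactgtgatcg
Tspan3: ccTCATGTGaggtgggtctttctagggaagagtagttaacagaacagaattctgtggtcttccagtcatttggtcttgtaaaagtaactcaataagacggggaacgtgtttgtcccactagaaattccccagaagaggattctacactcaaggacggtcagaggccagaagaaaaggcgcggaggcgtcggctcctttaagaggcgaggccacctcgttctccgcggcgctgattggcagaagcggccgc

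Of 25 genes of the exosome secretion pathway, 19 were above 1 CPM, 4 below, Smpd3 unresolved and Sytl4 without counts. The share above was 76.0% with Sytl4 included, against 62.0% of all rows. Of the rows with a count, 74.3% were above. The highest were Rab7, the late endosome GTPase, at 536, 571 and 538 CPM, Arf6, which acts with syntenin and phospholipase D, at 226, 227 and 235 CPM, the syndecan Sdc1 at 162, 159 and 167 CPM and Rab31 at 147, 147 and 146 CPM. Those below 1 CPM were the Rab27 effectors Sytl2 (15 reads) and Exph5 (2 reads), the phospholipase Pld2 (1 read) and Sdcbp2, and 1 gene of the list was called below without replicate 1, as without replicate 3. For Rab27, which carries vesicles and melanosomes to the plasma membrane, Rab27a measured 59.9, 63.1 and 62.4 CPM and Rab27b 1.92, 1.70 and 1.70 CPM. Of the phospholipase D genes Pld1 measured 35.9, 34.2 and 35.0 CPM, against 1 read for Pld2. Smpd3, the neutral sphingomyelinase of ESCRT-independent vesicle budding, had 31 reads in all.

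Of 27 further genes that work with ESCRT, 25 were above 1 CPM, Stambpl1 (2 reads) was below and Ubap1l was unresolved, a share above of 92.6% against 74.3% of rows tested. Nedd4, a ubiquitin ligase that marks ESCRT cargo, was highest at 799.9, 806 and 805 CPM, followed by Nedd4l at 151.16 ± 4.05 CPM, the ubiquitin-binding adaptor Tollip at 141 ± 4.72 CPM and Gga1 at 121 ± 3.67 CPM. Ist1, an ESCRT-III-like protein, measured 101 ± 3.72 CPM.

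**Figure D5:**
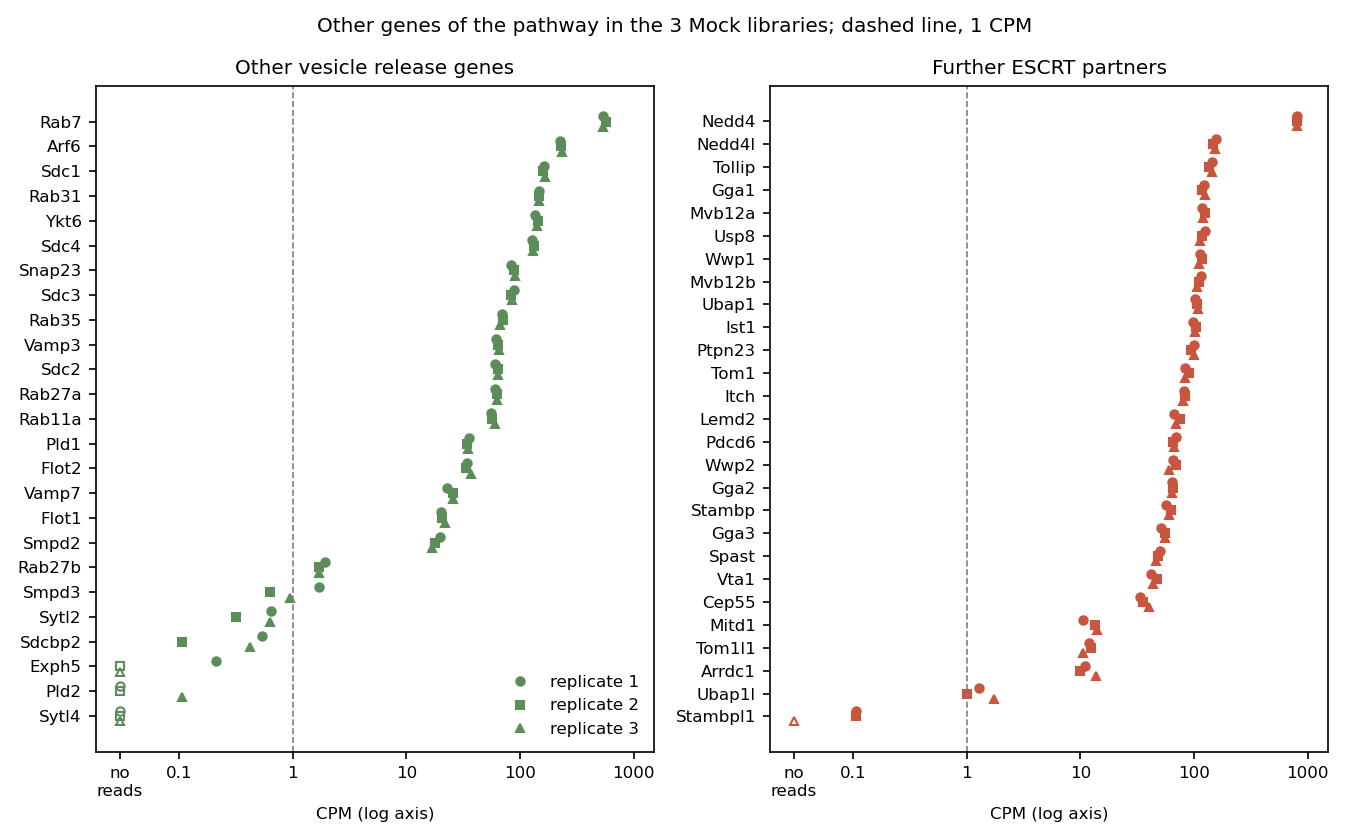
CPM (log axis, horizontal) of 25 exosome secretion genes on the left and 27 further ESCRT partners on the right, ordered by level. Circle, square and triangle are replicates 1, 2 and 3, open symbols stand for libraries with no reads, and the dashed line is 1 CPM. Rab7 and Nedd4 lead their lists, and Sytl4 had no reads.

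Among the known protein partners of tetraspanins, 11 of the 18 with a row were above 1 CPM, 4 were below, Ptgfrn was unresolved, and Cd4 and Cldn1 had no count. The share above, 61.1%, was near the 62.0% of all rows. The integrin subunit Itgb1 was highest at 321, 319 and 316 CPM, followed by Mmp14, a membrane protease, at 280.1, 271 and 263 CPM, and Itga6 at 173, 176 and 176 CPM. Adam10, given above, was the fourth. Of the other subunits of laminin-binding integrins, which CD151 binds, Itgb4 measured 17.1, 16.5 and 16.3 CPM and Itga3 3.31, 1.70 and 3.50 CPM. Those below 1 CPM were Cr2 (2 reads) and Cd8a (12 reads) of lymphocytes, Cd36 (1 read), and Timp1 (10 reads), a ligand of CD63, and 2 of the list were called below without replicate 1. Of 4 further members of the tetraspanin superfamily, Rom1 was above 1 CPM at 9.57 ± 0.632 CPM, Upk1a and Upk1b were unresolved and Prph2 had no count.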

How the data were processed

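RNA from 3 Mock samples of the B16 line was measured by RNA-seq. The authors deposited estimated counts per gene symbol, 1 column per sample, not normalized, and 2270 of 17285 rows held fractional values (over 0.005 from a whole number), among them Tspan4, Chmp3 and Vps37a. Libraries were prepared by BGI, per the labels' protocols, and the submitters' processing notes name GRCm38.p6 as genome build. Not given in the sources used here are the aligner, the counting tool, the annotation and whether strand was used.

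Counts were rounded, leaving 14408 rows to test. Totals are in the report, and TMM factors were 1.0034, 0.9977 and 0.9989. R 4.3.3 and edgeR 4.0.16 compared each level with 1 CPM (quasi-likelihood F test on a model with an intercept only, two-sided, Benjamini-Hochberg over all rows tested, adjusted p under 0.05). Variation between libraries was tested by Poisson deviance with 2 degrees of freedom on rows with a mean of at least 10 counts. Levels per kilobase used merged exons of GENCODE M21 for all 52 members, and sharing was counted in words of 31 bases over its transcripts. DESeq2 1.42.0 was an alternative, scipy 1.17.1 gave intervals, and matplotlib 3.10.9 the plots. The tests were run on simulated data with planted levels and planted differences between libraries. Counts for the level test had a common dispersion for all genes, and no gene was planted at 1 CPM. False calls at that level, or for genes of greater dispersion, were therefore not checked. Reads carry no molecular identifiers, so intervals and floors reflect counting error alone.

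The members, the lists and the pairs were chosen with earlier results of these data known. Every member is named, and in each other list the 4 genes of highest mean CPM, those below 1 CPM and those without counts. Any other gene was named with its values already seen.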

Additional observations from a re-analysis of the deposited data

How the results depend on the processing

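Of 51 members tested, 43 kept their call in every alternative, and 8 (Tspan2, Tspan8, Tspan33, Cd37, Tspan1, Tspan18, Vps37d and Chmp4c) changed in at least 1. The count of genes above 1 CPM stayed within 1.5 times its value throughout. Counts below 1 CPM moved. DESeq2's Wald test with its default dispersion called 0 below in every set, including all rows (0 also at an unadjusted p under 0.05), and its dispersion for the 6 low members was 10. With a mean dispersion, an alternative chosen after seeing the data, it called 5 tetraspanins, 1 ESCRT gene and 2662 rows below. With only rows of at least 10 counts, the number below was 1 for tetraspanins, 0 for ESCRT genes, 2 for exosome secretion, 0 for other ESCRT genes, 2 for partners, 1 for other family members and 408 for all rows. Against 0.5 CPM, 2 tetraspanins, 2 exosome secretion genes and 2 partners were below. Against 2 CPM, 2 other ESCRT genes and 2 other family members were below, and an exact Poisson test called 1 of the latter. Leaving out 1 replicate gave 2 to 4 tetraspanins, 0 to 1 ESCRT genes, 1 to 3 exosome secretion genes, 2 to 3 partners and 1835 to 2203 of all rows (2907 with all) below.

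The log2 ratio of class medians (0.90) was 0.98 with the longest transcript, 0.20 with coding length, 0.74 in CPM, 0.50 with members of at least 10 counts and -0.18 for sums. In alternatives chosen after seeing the data it was 0.86 without the 2 adaptors, 1.11 without 4 members sharing over 25% with another gene and 0.14 for members above 1 CPM. Of the pairs, 2 reversed in counts without length: Vps4a over Vps4b to -0.01 and Vps37a over Vps37b to 0.32. Tetraspanins that differed between libraries numbered 0 to 1 on leaving out a replicate. No paired analysis was possible because the samples form a single group. At this depth genes near 1 CPM, or 28.2 reads, such as Tspan2, were not placed on either side.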
